A study of Mus musculus with 21 samples.

Results

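The genes described here separated the notochord of the trunk from its own caudal progenitors in mouse embryos at E9.5. Each gene was placed by the ratio of (FPKM + 1) in trunk notochord to (FPKM + 1) in notochord progenitors (NotoPs), where FPKM is a gene's sequenced fragments scaled to transcript length and library size. Of the 23983 genes in the expression table, 9285 reached 5 FPKM in either library. Among these, 759 genes were 3-fold or more higher in trunk notochord (8.17% of the genes compared) and 824 were 3-fold or more lower (8.87%), which together make 1583 genes. The ratios themselves chose the genes, so they are given as a description with no test.

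The study sorted notochord and mesoderm cells from mouse embryos and made matching cells in culture, and it comprised 21 samples, of which 9 were RNA-seq libraries. Embryos were grown from F1G4 (C57BL/6N x SV129) mouse embryonic stem (mES) cells of a triple reporter line, so the embryonic libraries came from 1 engineered line. The labels name tetraploid complementation and the study's text diploid aggregation as the route to these embryos, and in the second route host cells without reporters also build the embryo. All embryonic libraries, the progenitor controls included, carried the BAC transgenes T::H2B-Venus, Noto::H2B-mCherry and Foxa2::H2B-mTurquoise, which place fluorescent histones under the regulatory regions of brachyury (T), Noto and Foxa2. Both groups of the main comparison were cells positive for all 3 reporters from pooled E9.5 embryos, sorted by fluorescence, and neither received an agent. They differed in where the embryo was cut, since 90 cells came from trunk tissue and 250 cells from the caudal end. There was 1 library a group, so no difference between them has a replicate check, an SD or a p-value, and tissue, embryo pool, cell number and library cannot be told apart. A sort for the same reporters at E8.5 gave 1 trunk notochord and 1 NotoP library. There, unlike at E9.5, the gate for Foxa2 was set to high cells for trunk notochord alone, and at both stages the trunk embryos spanned a wider range of somite numbers than the NotoP embryos. Embryo age at both stages, and the gate at E8.5, therefore cannot be told apart from tissue. In addition, the mesodermal progenitors (MPs), which were T positive and negative for Noto and Foxa2, gave 1 library a stage.

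The notochord is the axial rod of the vertebrate embryo. New notochord cells are laid down at the tail end by progenitors near the node, a zone rich in Wnt and Fgf ligands where the Hox genes are switched on in sequence. Behind that zone, cells of the trunk notochord wrap themselves in a sheath of collagen and proteoglycan, secrete Sonic hedgehog, and pattern the neural tube, the somites and the gut. T is a T-box transcription factor of mesoderm and notochord, Foxa2 is a forkhead factor of node, notochord, floor plate and endoderm, and Noto is a homeobox factor of node and early notochord.

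Depth set the precision of every ratio. Among the 15433 genes with 1 annotated transcript, FPKM times transcript length moved in whole steps. In each of the E9.5 libraries, 94.5% of their low values lay within 0.1 of a whole number of fragments. For genes with several transcripts the length of the shortest was used, so their fragment numbers and intervals are approximate. From the size of a step, about 421000 fragments stood behind the trunk notochord library and 1550000 behind NotoP, and 11576 and 13153 genes respectively lay above 0. These totals are what the steps imply; the study counts mapped reads separately, and those totals are larger and were not used here. The 95% intervals given below are exact binomial (Clopper-Pearson) intervals of the ratio of these implied fragments, and they cover counting error only, not the spread between animals or the losses of a 90-cell library. The median log2 ratio over all genes compared was 0.03. Genes whose higher level would give 0 to 3 fragments in the trunk library were 3-fold lower in 27.2% of cases and 3-fold higher in 18.0%, against 2.13% and 4.46% of genes with 100 or more fragments. The genes past 3-fold were therefore more often shallowly covered, with a median of 15.3 fragments for the higher genes and 11.1 expected fragments for the lower genes. The interval left out equal levels for 707 of the 759 higher genes and 661 of the 824 lower genes. It lay wholly beyond 3-fold for 317 and 121 genes. The same values chose the genes, so these counts follow in part from the choice and do not test it. At the threshold itself, Col5a1 (log2 ratio 1.59) was just inside and Ttc21b (1.58) just outside among higher genes, and Tagln2 (-1.59) was just inside and Cops6 (-1.58) just outside among lower genes. In bulk RNA, fewer cells of a type and less RNA per cell cannot be told apart.

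**Figure D1:**
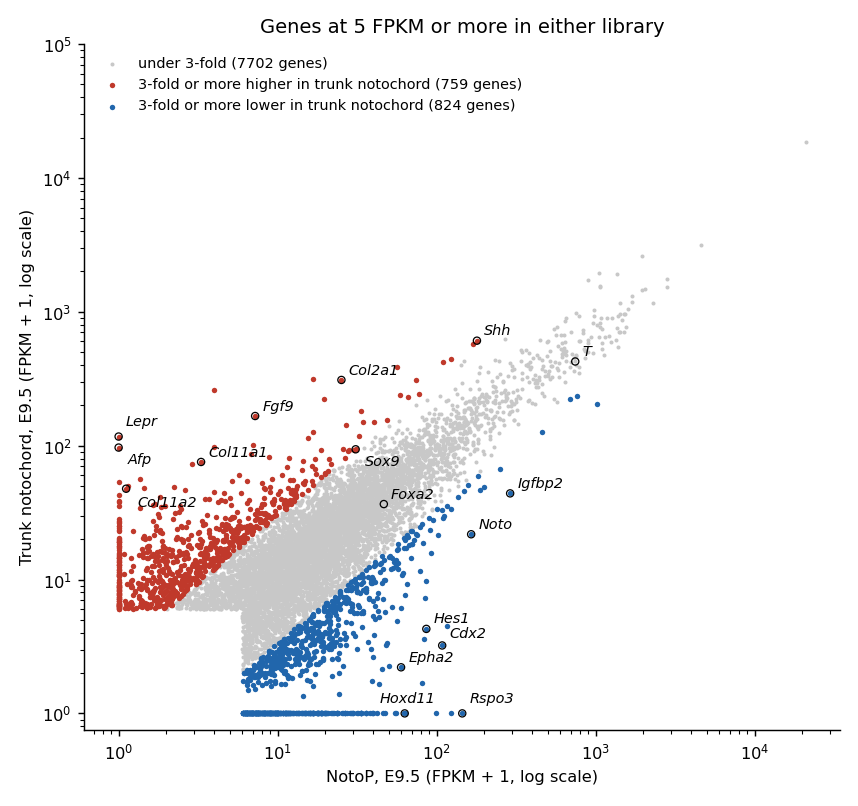
Levels of all genes at 5 FPKM or more in either E9.5 library, with NotoP on the horizontal axis and trunk notochord on the vertical axis (both FPKM + 1 on log scales). Red points are the 759 genes 3-fold or more higher in trunk notochord and blue points the 824 genes 3-fold or more lower. The row of points along the bottom holds the genes listed at 0 FPKM in trunk notochord, and circled genes are named in the text.

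The sorting genes were present in both libraries, but their levels differed. T was at 744 FPKM in NotoP and 424 FPKM in trunk notochord, a ratio of 0.57 (interval 0.509 to 0.637). Foxa2 was at 45.6 and 35.6 FPKM, and its interval of 0.511 to 1.15 held equal levels. Noto was at 164 FPKM in NotoP and 20.8 FPKM in trunk notochord, a ratio of 0.127 (0.0686 to 0.215). Noto was thus the sorting gene past 3-fold, and at E8.5 it stood at 152 FPKM in NotoP and 27.5 FPKM in trunk notochord.

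Of 14 known notochord genes checked, 14 were at 5 FPKM or more in NotoP and 13 in trunk notochord, so both libraries carried the label's markers. Shh, the secreted patterning signal, was at 178 FPKM in NotoP and 607 FPKM in trunk notochord, 3.40-fold higher (3.06 to 3.78). Foxa1, a forkhead factor related to Foxa2, was at 44.3 and 88.0 FPKM. Nog, a secreted BMP antagonist, was at 37.2 and 48.2 FPKM. Chrd, another BMP antagonist of the node, was at 10.6 FPKM in NotoP and was listed at 0 in trunk notochord, where its NotoP level would give 14.6 fragments. Among 11 notochord transcription factors compared, Sox6 and Sox9 were 3-fold higher and Noto and Mixl1 3-fold lower, with a list median of -0.35. Sox9, which switches on cartilage matrix genes, was at 30.0 FPKM in NotoP and 92.9 FPKM in trunk notochord. Its partner Sox6 was at 7.25 and 39.8 FPKM, 5.49-fold higher (4.19 to 7.18). Mixl1, a homeobox gene of the primitive streak, was at 44.7 FPKM in NotoP and was listed at 0 in trunk notochord, where 43.2 fragments would be expected.

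Genes of the caudal progenitor zone stood far below NotoP. Of 33 such genes, 25 were at 5 FPKM or more in either library, 15 of these were 3-fold or more lower in trunk notochord and 0 were 3-fold higher. Their median log2 ratio was -3.61, beside 0.03 for all genes compared. Their summed level was 1170 FPKM in NotoP and 315 FPKM in trunk notochord. Rspo3, a secreted amplifier of Wnt signalling, was at 144 FPKM in NotoP, 155 FPKM in MP and listed at 0 in trunk notochord, where its NotoP level would give 145 fragments. Cdx2, a homeobox factor that drives axis elongation and Hox expression, was at 107 FPKM in NotoP and 2.22 FPKM in trunk notochord, a ratio of 0.0206 (0.00249 to 0.075). Its relative Cdx4 was at 32.7 FPKM and listed at 0, with 21.9 fragments expected. Fgf8, the main Fgf ligand of the tail bud, was at 54.4 FPKM in NotoP and listed at 0 in trunk notochord, with 23.1 fragments expected. Fgf17 (15.7 FPKM) and Wnt3a (11.2 FPKM), ligands of the same zone, were likewise listed at 0, with 10.9 and 13.0 fragments expected. These ligands were thus read in NotoP at levels that the trunk library would have shown as about 10 fragments or more.

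The mesoderm-forming branch of the zone was lower too. Tbx6 and Msgn1, transcription factors of presomitic mesoderm, were at 27.8 and 46.6 FPKM in NotoP, at 67.2 and 123 FPKM in MP, and listed at 0 in trunk notochord. Hes7, the oscillating repressor of the segmentation clock, was at 22.7 FPKM in NotoP and listed at 0 in trunk notochord, though only 9.21 fragments would be expected there. Cyp26a1, which degrades retinoic acid, was at 38.0 FPKM in NotoP, 78.3 FPKM in MP and listed at 0 in trunk notochord, with 28.4 fragments expected. Sp8 and Evx1, a zinc finger and a homeobox factor of the tail bud, were at 18.7 and 13.4 FPKM in NotoP and listed at 0 in trunk notochord. Lef1, a nuclear partner of beta-catenin, was at 55.6 and 3.90 FPKM. Greb1 was at 90.2 and 22.4 FPKM, a ratio of 0.249 (0.193 to 0.314).

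The caudal genes that stayed within 3-fold were mostly below NotoP. Wnt5a, a ligand of the non-canonical Wnt branch, was at 29.1 FPKM in NotoP and 16.4 FPKM in trunk notochord. Wnt5b was at 45.6 and 24.7 FPKM. The RNA-binding protein gene Lin28a was at 52.0 and 33.5 FPKM, and its paralogue Lin28b was at 7.87 and 14.5 FPKM, with an interval of 1.18 to 2.84 for its ratio. Sall4, a zinc finger factor of progenitors, was at 60.9 and 25.9 FPKM. Lin28a, Lin28b and Sall4 were named after their values were seen.

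**Figure D2:**
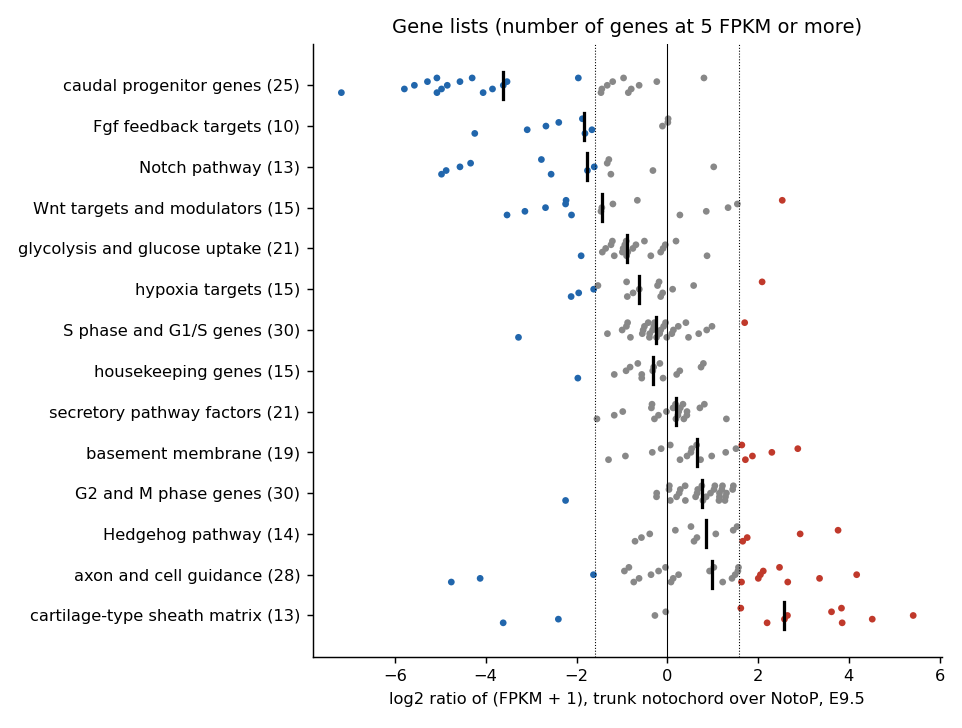
log2 ratio of (FPKM + 1), trunk notochord over NotoP at E9.5, for each gene at 5 FPKM or more in 14 gene lists, with the number of such genes in brackets. Points are genes, black bars are list medians, dotted lines mark 3-fold, and red and blue points lie past 3-fold. Caudal progenitor genes have a median of -3.61 and cartilage-type sheath matrix genes a median of 2.58.

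Some of the lower genes had strong peaks of T binding beside them in cultures enriched for NotoP-like cells (NotoPdiff). Chromatin immunoprecipitation there gave a peak list for T and for Foxa2. It was done on bulk cultures and not on sorted cells, so the peaks cannot be assigned to the NotoP-like cells alone. These cultures came from another line, with inducible TRE::Foxa2-IRES-EGFP. Peaks within 10 kb were ranked only for genes past 3-fold that were named by rule, not for those within 3-fold or named after their values were seen. By q value, the strongest of these T peaks lay at Dusp4, Msgn1 and Hes7 (-log10 q of 222, 153 and 139). The 101 bases around each summit are shown to let the bound sequence be read beside its gene. The Dusp4 summit lay at -3188 bases from the start site, a minus sign meaning upstream (chr8:34804372-34804472, 21.5-fold enrichment). The Msgn1 summit lay at -220 bases (chr12:11209118-11209218, 23.4-fold). The Hes7 summit lay at -1388 bases (chr11:69119015-69119115, 18.3-fold). The annotation placed all 3 between genes. By fold enrichment a T peak at Apoa1, a gene higher in trunk notochord, came before Hes7, with 19.8-fold and a -log10 q of 93.1. All are given on the plus strand of mm10 from RefSeq's GRCm38.p6, and capitals mark the letters GGTGNNA, the core of a T-box site, read on either strand.
Dusp4: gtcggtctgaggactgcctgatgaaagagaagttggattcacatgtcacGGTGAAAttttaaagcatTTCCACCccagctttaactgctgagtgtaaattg
Msgn1: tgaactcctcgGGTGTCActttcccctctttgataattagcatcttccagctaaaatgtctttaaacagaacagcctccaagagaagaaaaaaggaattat
Hes7: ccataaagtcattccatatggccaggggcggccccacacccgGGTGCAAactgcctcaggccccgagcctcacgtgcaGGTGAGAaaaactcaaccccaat
The Dusp4 and Hes7 windows each held 2 matches and the Msgn1 window 1. Over all T peaks, 36.9% of such windows held the letters, against 16.9% of windows of the same length 10 kb away. The letters were chosen after the sequences were seen, and a match is a description of the window only.

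Feedback targets of Fgf signalling were lower as a group. All 10 on the list were compared, 7 were 3-fold or more lower, 0 were higher, and the median log2 ratio was -1.84. Dusp4 and Dusp6, phosphatases that switch off Erk, were at 74.8 and 61.7 FPKM in NotoP and at 20.6 and 16.1 FPKM in trunk notochord. Il17rd, a membrane inhibitor of Fgf receptors, was at 51.7 and 5.21 FPKM, a ratio of 0.101 (0.0593 to 0.160). Etv4, an Ets factor induced by Fgf, was at 17.9 FPKM in NotoP and listed at 0 in trunk notochord, with 17.5 fragments expected. Etv5 was at 20.6 and 3.11 FPKM. Spry1 (12.4 and 11.5 FPKM), Spred1 (27.9 and 28.2 FPKM) and Spred2 (22.9 and 23.2 FPKM), inhibitors of the same cascade, were nearly level, so not every member was lower.

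Another Fgf ligand and a pair of receptors stood the other way, and were named after their values were seen. Fgf9 was at 6.22 FPKM in NotoP and 165 FPKM in trunk notochord, 26.6-fold higher (19 to 38), and at 6.15 and 30.3 FPKM at E8.5. Fgfr2 was at 0.530 and 13.6 FPKM and Fgfr3 at 0.325 and 8.40 FPKM. Fgfr1 was at 24.0 and 21.8 FPKM, with an interval of 0.644 to 1.28 for its ratio. The ligand with the most FPKM among those named thus differed, Fgf8 in NotoP and Fgf9 in trunk notochord.

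Wnt targets and modulators had 15 genes compared, of which 6 were 3-fold lower and 1 higher. Their median log2 ratio was -1.44. This list shares Axin2, Sp5 and Lef1 with the caudal list. Dkk1, a secreted Wnt inhibitor, was at 40.0 FPKM in NotoP and 8.5 FPKM in trunk notochord. Tnfrsf19, a receptor induced by Wnt, was at 67.8 and 13.5 FPKM, a ratio of 0.200 (0.125 to 0.304). Nkd2 was at 7.80 FPKM in NotoP and listed at 0 in trunk notochord. Axin2, the general feedback target of canonical Wnt, was at 24.8 and 8.37 FPKM, just short of 3-fold on the (FPKM + 1) scale. Dkk3 went the other way, with 2.11 FPKM in NotoP and 17.0 FPKM in trunk notochord. Wnt3, named after its values were seen, was at 20.9 and 1.53 FPKM.

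Notch pathway genes numbered 13 among those compared, with 8 3-fold lower, 0 higher and a median log2 ratio of -1.76. This list shares genes with the caudal list, Dll1 and Hes7 among them. The ligands Dll1 and Dll3 were at 30.4 and 28.3 FPKM in NotoP, at 101 and 78.2 FPKM in MP, and listed at 0 in trunk notochord, with 43.5 and 25.7 fragments expected. Hes1, a direct transcriptional target of Notch, was at 85.2 and 3.28 FPKM, a ratio of 0.0384 (0.00462 to 0.141). Hey1 was at 64.5 and 20.5 FPKM, and Nrarp, a feedback inhibitor, at 30.5 and 8.31 FPKM. Among receptors, Notch3 was at 22.2 and 2.39 FPKM, Notch1 at 40.2 and 32.1 FPKM, and Notch2 at 17.5 and 36.7 FPKM. The Dll ligands and these targets were thus past 3-fold, and of the 3 receptors Notch3 was.

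Hox genes were lower, with a larger median gap in the groups of higher number. They encode homeobox factors that give segments their identity along the axis, and those of low number are active first and furthest forward. Of 39 Hox genes, 29 reached 5 FPKM in either library, 18 were 3-fold or more lower in trunk notochord and 1 was higher. Their median log2 ratio was -2.40. Groups 8 to 13 had 11 genes compared and 9 past 3-fold lower, with a median of -3.86. Groups 5 to 7 had 6 compared and 4 lower, with a median of -1.97. Groups 1 to 4 had 12 compared, 5 lower and 1 higher, with a median of -1.28. The summed level of groups 8 to 13 was 414 FPKM in NotoP and 41.1 FPKM in trunk notochord, and that of groups 1 to 4 was 232 and 120 FPKM.

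Single Hox genes differed within a group and a cluster. Hoxd10 was at 82.2 FPKM in NotoP and 2.57 FPKM in trunk notochord, a ratio of 0.0313 (0.00377 to 0.114). Hoxd11 was at 62.0 FPKM in NotoP and listed at 0 in trunk notochord, where 87.9 fragments would be expected. Hoxa9 was at 47.5 and 2.33 FPKM and Hoxd8 at 49.3 and 1.28 FPKM. Hoxb8 and Hoxb9, genes of the same groups in the B cluster, were nearly level, at 10.5 and 11.7 FPKM and at 21.7 and 15.9 FPKM. At the front of the clusters, Hoxb1 was at 44.3 FPKM in NotoP and 1.14 FPKM in trunk notochord. Hoxa2 (11.2 and 20.1 FPKM) and Hoxb2 (19.8 and 20.4 FPKM) were within 3-fold. Several of these genes were also near or at 0 in the E8.5 NotoP library, so no E8.5 contrast exists for them: Hoxd11, Hoxc9 and Hoxc10 were listed at 0 in both E8.5 notochord libraries and stood at 74.5, 26.6 and 151 FPKM in MP at E9.5.

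**Figure D3:**
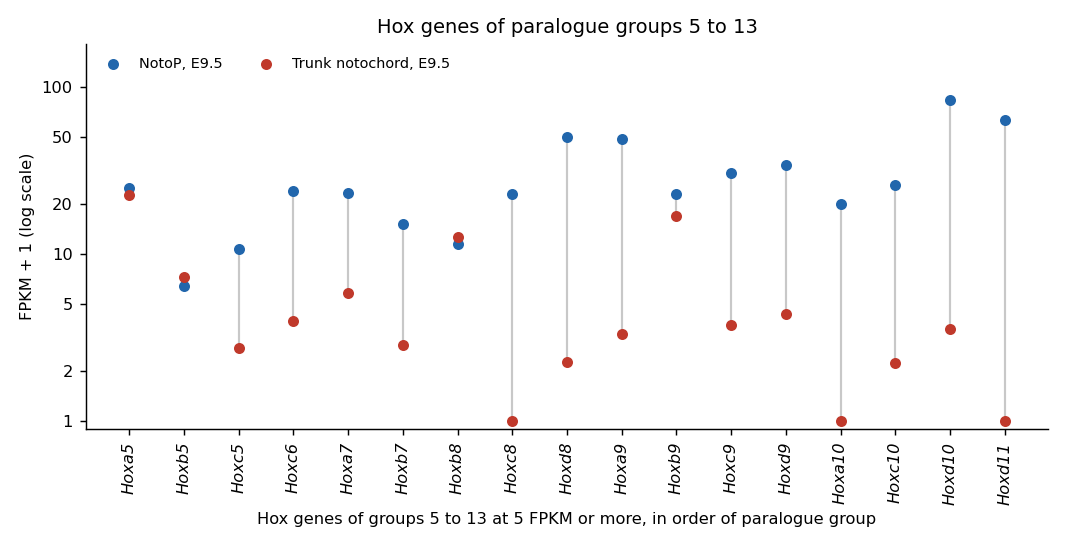
Levels (FPKM + 1, log scale) of the Hox genes of groups 5 to 13 at 5 FPKM or more, in order of paralogue group, in NotoP (blue) and trunk notochord (red) at E9.5, 1 library each, with lines joining the levels of a gene. Trunk notochord lies below NotoP for most genes of groups 8 to 13, and the levels of Hoxb8 and Hoxb9 lie close together.

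Of the 8076 genes at 5 FPKM or more in NotoP, 306 (3.79%) were listed at 0 in trunk notochord. Of the 8048 genes at 5 FPKM or more in trunk notochord, 106 (1.32%) were listed at 0 in NotoP. An exact 0 cannot be read as absence here, because genes that every cell uses were also at 0: Uqcrq, a subunit of respiratory complex III, was at 34.8 FPKM in NotoP with 21.1 fragments expected in trunk notochord, and Pam16, a mitochondrial import subunit, was at 35.0 FPKM with 8.13 expected. No housekeeping gene of the 15 on the list was at 0, although Hprt was at 30.6 and 7.05 FPKM. Genes listed at 0 in trunk notochord were shorter than others, with a median transcript length of 1520 bases against 2740 for all genes at 5 FPKM or more in NotoP, and 28.4% against 9.97% were shorter than 1000 bases. Their median NotoP level was 8.62 FPKM, which would give a median of 6.5 fragments. Fewer than 3 fragments would be expected for 55 of them, 3 to 10 for 165, and 10 or more for 82. Among the 82, Rspo3, Hoxd11, Abcb1b, Eogt and Dll1 were the named genes with the most expected fragments. Abcb1b, a drug efflux transporter, was at 41.2 FPKM in NotoP with 75.3 fragments expected, and at 2.82 and 1.01 FPKM at E8.5. Eogt, which adds a sugar to secreted proteins with EGF repeats, was at 38.6 FPKM in NotoP with 67.0 fragments expected, and at 94.7 FPKM in MP.

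**Figure D4:**
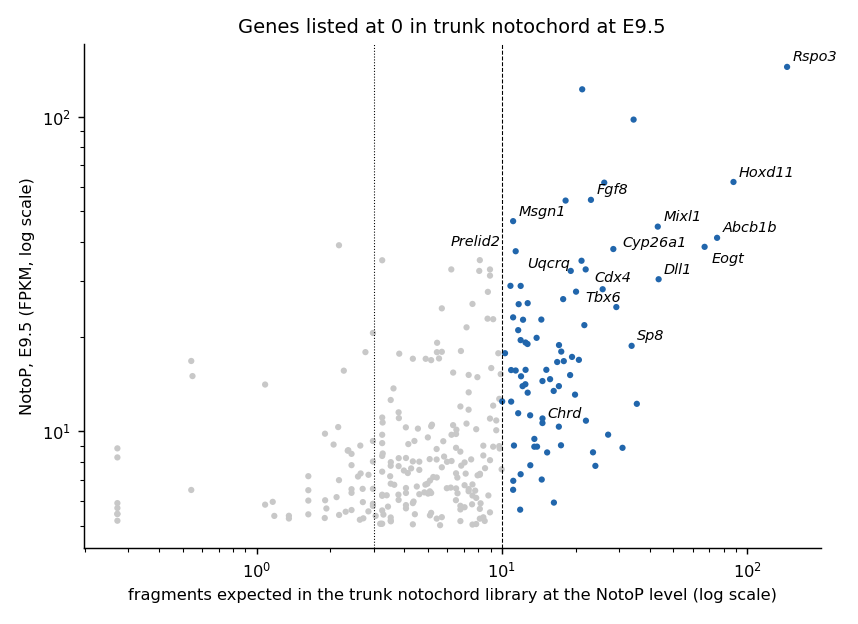
Genes listed at 0 FPKM in trunk notochord at E9.5, placed by the fragments their NotoP level would give in the trunk library (horizontal, log scale) and by their NotoP level in FPKM (vertical, log scale). The dotted line marks 3 and the dashed line 10 expected fragments, and the 82 genes at 10 or more are blue. Rspo3 stands furthest right with 145 expected fragments.

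Among the genes higher in trunk notochord, the cartilage-type matrix of the sheath was the pathway or structure list with the highest median. Of 13 genes compared, 9 were 3-fold or more higher and 2 lower, with a median log2 ratio of 2.58, and their summed level was 225 FPKM in NotoP and 755 FPKM in trunk notochord. Col2a1, the main fibrillar collagen of sheath and cartilage, was at 24.2 FPKM in NotoP and 308 FPKM in trunk notochord, 12.7-fold higher (10.8 to 15.1). Col11a1, which joins the same fibrils, was at 2.30 and 74.5 FPKM, 32.4-fold higher (21.4 to 48.8). Col11a2 was at 0.115 and 46.6 FPKM. The chains of collagen IX, which coats these fibrils, were all higher: Col9a1 was at 6.03 and 101 FPKM, Col9a2 at 0.469 and 7.79 FPKM, and Col9a3 at 0.226 and 6.68 FPKM. Acan, the large proteoglycan of cartilage, was at 0.0876 and 14.5 FPKM. Hapln1, the link protein that ties it to hyaluronan, was at 13.2 and 64.4 FPKM, 4.86-fold higher (3.74 to 6.34). Xylt1, which starts proteoglycan side chains, was at 2.1 and 8.52 FPKM. The genes that went the other way were Bgn, a small proteoglycan, at 23.5 and 0.995 FPKM, and Hapln3 at 13.0 and 1.66 FPKM. The higher genes thus took in the fibre-forming collagens, their coat and the aggrecan complex, while Matn1, a cartilage matrilin, was at 0 in both libraries.

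Basement membrane genes were higher in smaller number. Of 19 compared, 5 were 3-fold higher and 0 lower, with a median log2 ratio of 0.65. The summed level of the list was nearly level, at 1060 FPKM in NotoP and 1030 FPKM in trunk notochord. Col18a1 was at 14.4 and 112 FPKM, 7.77-fold higher (6.19 to 9.81). Sparc, a collagen-binding protein, was at 17.8 and 91.8 FPKM, and Fras1, which anchors epithelia to their basement membrane, at 5.61 and 23.2 FPKM. Lamb2 (3.66 and 14.4 FPKM) and Nid1 (2.34 and 9.44 FPKM) were also past 3-fold. The network collagens Col4a1 (21.8 and 29.8 FPKM) and Col4a2 (15.9 and 23.3 FPKM) were not. Fn1, fibronectin, and Lama1, a laminin chain, were named after their values were seen and lay below NotoP, at 546 and 222 FPKM and at 35.9 and 18.5 FPKM.

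The machinery that makes and exports matrix was mostly within 3-fold. Of 21 secretory pathway genes compared, 0 were 3-fold higher and 0 lower, with a median log2 ratio of 0.19. Sec23a, a coat protein of vesicles that carry collagen, was at 16.3 and 41.7 FPKM, and Creb3l2, a factor for secretory genes, at 17.5 and 29.4 FPKM. Among 12 collagen processing genes, Loxl3, a collagen cross-linking oxidase, was 3-fold higher, at 0.636 and 6.46 FPKM. P4hb (183 and 225 FPKM) and P4ha1 (58.8 and 54.7 FPKM), subunits of prolyl hydroxylase, were nearly level. Of 11 genes of vacuoles, caveolae and membrane traffic, 2 were 3-fold higher, Rab38 (7.35 and 46.7 FPKM) and Pacsin3 (2.07 and 10.2 FPKM), while Cav1, at 0.491 FPKM in NotoP, and Cav2 and Cav3, at 0 in both, gave no reading of the caveolins of the later notochord.

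Hedgehog pathway genes numbered 14 among those compared, with 4 3-fold higher, 0 lower and a median log2 ratio of 0.86. The ligand Shh is described above. Among its binding proteins at the cell surface, Cdon was at 6.61 and 23.1 FPKM, 3.49-fold higher (2.48 to 4.91). Gas1 was at 1.03 and 14.4 FPKM, 14.0-fold higher (5.07 to 48.1). Hhip, a decoy receptor induced by the pathway, was listed at 0 in NotoP and stood at 12.6 FPKM in trunk notochord. Other members were named after their values were seen. Ptch1, the receptor and a target of the pathway, was at 86.0 and 136 FPKM, 1.58-fold (1.40 to 1.77). Gli1, the standard target, was at 16.9 and 24.7 FPKM, with an interval of 0.976 to 2.15. The signal, the co-receptors Cdon and Gas1 and the decoy were thus past 3-fold while the general targets Ptch1 and Gli1 were not.

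Guidance genes had 28 members compared, with 8 3-fold higher, 3 lower and a median log2 ratio of 0.98. Slit ligands repel growing axons through Robo receptors. Slit1 was at 1.60 and 45.8 FPKM, 28.7-fold higher (16 to 55.7). Slit2 was at 141 and 398 FPKM, 2.83-fold (2.65 to 3.02), and Slit3 at 35.4 and 68.5 FPKM. Their receptors Robo1 (4.68 and 16.6 FPKM) and Robo2 (0.0800 and 10.0 FPKM) were higher too. Ntn1, a netrin that attracts commissural axons, was at 4.94 and 23.6 FPKM, and Rgma, a repulsive guidance molecule, at 7.90 and 48.4 FPKM, 6.12-fold higher (4.16 to 9.12). The semaphorin co-receptors Nrp1 and Nrp2 were at 3.59 and 18.9 FPKM and at 1.72 and 9.91 FPKM. On the lower side, Epha2, an ephrin receptor of the node, was at 58.8 and 1.21 FPKM, a ratio of 0.0206 (0.00248 to 0.0748). Unc5b, a netrin receptor, was at 23.5 and 0.405 FPKM, and at E8.5 at 2.57 and 8.62 FPKM. Among genes outside the list, Ephb1, another ephrin receptor, was at 0.142 and 48.8 FPKM. Ntng1, an anchored netrin, and Reln, a secreted glycoprotein that positions neurons, were named after their values were seen, at 0.638 and 34.9 FPKM and at 0.826 and 21.5 FPKM.

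The 15 coding genes with the largest ratios in favour of trunk notochord were of mixed kinds. Lepr, the leptin receptor, was listed at 0 in NotoP and at 116 FPKM in trunk notochord, and at 0.341 and 46.0 FPKM at E8.5. Sostdc1, a secreted antagonist of BMP and Wnt, was at 0.368 and 55.7 FPKM. Spp1, osteopontin, was at 0.453 and 46.9 FPKM at E9.5 and at 0.664 and 44.9 FPKM at E8.5. Cd36, a fatty acid receptor, and the metallothionein gene Mt2 were listed at 0 in NotoP and stood at 37.1 and 34.2 FPKM in trunk notochord. Zim1 (27.2 FPKM), Gsto2 (37.8 FPKM), Ak8 (25.7 FPKM) and Wfdc10 (41.4 FPKM) were also listed at 0 in NotoP, and the last rested on 8 fragments. Amd2 was among the 15, and its near-identical copy Amd1 among the 15 most lowered, yet their sum was 53.5 FPKM in trunk notochord and 80.4 FPKM in NotoP, so neither ratio can be read. Outside the 15, Car3, a carbonic anhydrase, was at 15.6 and 312 FPKM, Pdlim1 at 3.00 and 96.3 FPKM, Htra1, a secreted protease, at 1.90 and 72.3 FPKM, and Enpp2, autotaxin, at 0.372 and 33 FPKM. These last genes were named after their values were seen.

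Other signalling systems had members past 3-fold in both directions. Of 13 genes of the insulin-like growth factor system, 3 were 3-fold higher and 2 lower, with a median log2 ratio of 0.25. All 5 were binding proteins, which hold the ligand outside the cell. Igfbp5 was at 122 and 445 FPKM, 3.65-fold higher (3.36 to 3.97), and Igfbp4 and Igfbp7 were at 13.7 and 50.6 FPKM and at 9.20 and 34.0 FPKM. Igfbp2 was at 289 and 43.0 FPKM, a ratio of 0.149 (0.0864 to 0.243). The ligand Igf2 (345 and 315 FPKM) and the receptor Igf1r (48.1 and 43.9 FPKM) were nearly level. Binding proteins thus stood on both sides, around a ligand and a receptor at like levels.

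Retinoic acid genes were split, with 3 higher and 3 lower of 11 compared and a median log2 ratio of 0.47. Rara, a retinoic acid receptor, was at 7.29 FPKM in NotoP and 30.2 FPKM in trunk notochord, but at 20.8 and 6.77 FPKM at E8.5. Crabp2, a carrier of retinoic acid in the cell, was at 10.7 and 79.2 FPKM at E9.5 and at 3.14 and 0 FPKM at E8.5. Crabp1 was at 12.0 and 41.5 FPKM. Stra6, the importer of retinol, was at 14.0 and 3.44 FPKM. Aldh1a2, which makes retinoic acid, was at 31.3 and 12.6 FPKM. With Cyp26a1 listed at 0, the breakdown enzyme, the importer and the synthetic enzyme all lay below NotoP.

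BMP and TGF-beta genes had 16 members compared, with 2 higher, 5 lower and a median log2 ratio of 0.12. The antagonists Chrd and Fst and the Nodal antagonist Dand5 were listed at 0 in trunk notochord, with 14.6, 6.49 and 2.72 fragments expected. At E8.5 Chrd and Dand5 also lay below NotoP, but Fst was at 6.00 FPKM in NotoP and 16.1 FPKM in trunk notochord. Id1 and Id2, targets of BMP signalling, stood on opposite sides, at 60.7 and 10.2 FPKM and at 9.62 and 59.8 FPKM, but Id1 was at 42.4 and 73.0 FPKM at E8.5. Bmp7 was at 17.2 and 16.8 FPKM. Of 13 targets of Yap and Tead, 1 was higher and 2 lower, with Ctgf, a matrix-associated growth factor, at 3.75 and 22.8 FPKM.

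Epithelial genes were mostly within 3-fold, and mesenchymal genes had more members past it. Of 13 epithelial genes, 1 was 3-fold higher and 2 lower, with a median log2 ratio of 0.16. Krt8, a keratin of simple epithelia and notochord, was at 109 and 423 FPKM, 3.87-fold higher (3.30 to 4.54), and its partner Krt18 at 86.5 and 217 FPKM. Krt19 was at 160 and 125 FPKM, and Dsp, which links keratins to desmosomes, at 107 and 32.2 FPKM, a ratio of 0.302 (0.251 to 0.361). Of 18 mesenchymal genes, 6 were higher and 2 lower, beside 8.17% and 8.87% of all genes compared, with a median of 0.75. Tnc, a matrix glycoprotein, was at 0.726 and 24.1 FPKM at E9.5, and at 2.13 and 0 FPKM at E8.5. Thbs1 was at 0.777 and 13.9 FPKM and Col1a2 at 3.76 and 20.3 FPKM. Cdh11 was at 39.4 and 2.82 FPKM, while Cdh2, N-cadherin, was at 216 and 131 FPKM. Of 10 genes of cilia and node compared, 4 were higher and 1, Noto, was lower, and Foxj1, the master factor of motile cilia, was at 0 in both libraries.

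Most genes of the S, G2 and M phase lists were within 3-fold, while 4 of 9 inhibitors were not. Of 30 genes of G2 and M phase, 0 were 3-fold higher and 1 lower, Cenpa, yet 27 lay above NotoP, with a median log2 ratio of 0.77 and a summed level of 1230 FPKM in NotoP and 2120 FPKM in trunk notochord. Mki67, a marker of dividing cells, was at 72.9 and 199.6 FPKM, 2.74-fold (2.50 to 2.99). The same list had a median of 0.14 at E8.5. Of 30 genes of S phase, 1 was higher, Gins2, and 1 lower, Gins1, with a median of -0.26, and Mcm2, part of the replicative helicase, was at 56.2 and 55.7 FPKM. Among 9 cell cycle inhibitors, Cdkn1b, p27, was higher, at 6.16 and 26.7 FPKM, and Btg1, Btg2 and Ccng1 were lower. Cdkn1c, p57, was at 149 and 185 FPKM.

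Most glycolysis genes lay below NotoP by less than 3-fold. Of 21 compared, 1 was 3-fold lower and 0 higher. Their median log2 ratio was -0.90, and the summed level was 6740 FPKM in NotoP and 3390 FPKM in trunk notochord. Slc2a3, a glucose transporter, was at 249 and 66 FPKM, a ratio of 0.265 (0.217 to 0.322). Ldha, which makes lactate, was at 1390 and 541 FPKM, Pkm, pyruvate kinase, at 1125 and 476 FPKM, and Aldoa, aldolase, at 569 and 210 FPKM, all 3 named after their values were seen. Gapdh was at 494 and 463 FPKM. At E8.5 the list median was -0.65. Of 15 targets of hypoxia, some of them also on the glycolysis list, 1 was higher and 3 lower, with Bnip3 at 156 and 50.1 FPKM, and the median was -0.62. The 15 housekeeping genes had a median of -0.32.

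Early response genes were split, with 3 higher and 4 lower of 13. Egr1 was at 0.419 and 19.3 FPKM, Fos at 1.54 and 9.08 FPKM and Fosb at 0.341 and 6.29 FPKM, whereas Junb was at 10.2 FPKM and listed at 0 in trunk notochord and Ier2 was at 44.9 and 10.9 FPKM. Such genes can respond to the handling and dissociation of cells, and their part in other differences was not tested.

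Markers of other cell types of the trunk were read beside the higher genes. Of 14 blood markers, 13 were at 0 in trunk notochord and 13 in NotoP, the haemoglobin genes Hba-a1, Hba-a2, Hba-x and Hbb-y included, and Epor, the erythropoietin receptor gene, was at 12.7 FPKM in NotoP and listed at 0 in trunk notochord. Of 14 endothelial markers, 13 were at 0 in trunk notochord, Pecam1, Kdr and Tie1 among them. Of 19 somite and sclerotome markers, 3 of 7 compared were 3-fold higher, Pax1 (0 and 13.5 FPKM), Twist1 (0 and 21.9 FPKM) and Prrx1 (0.908 and 16.8 FPKM), while Meox2 and Tcf15 were at 0, and the summed level was 98.6 FPKM in NotoP and 118 FPKM in trunk notochord. Of 8 neural crest markers, Sox10 was at 0 and 26.3 FPKM and Tfap2a at 0 and 4.15 FPKM, Foxd3 was at 0 in both, and the sum was 5.24 and 45.8 FPKM. In trunk notochord 1 of the 8 was at 0 and in NotoP 5, and the median log2 ratio of the 2 compared was 2.91. Of 8 gut endoderm markers compared, 4 were higher and 1 lower: Afp (0 and 95.7 FPKM), Ttr (0 and 23.4 FPKM), Apoa1 (0 and 12.0 FPKM) and Pax8 (0 and 14.8 FPKM), while Sox17 and Gata4 were at 0 in both, and the sum was 136 and 191 FPKM. The median log2 ratio was 2.53. The lower gut marker was Cdx2, also a caudal gene, and without it, a choice made after its values were seen, the sum was 28.9 FPKM in NotoP and 189 FPKM in trunk notochord, with a median of 3.70 over 7 genes. Of 8 floor plate markers compared, 5 were higher, among them Spon1 (1.46 and 32.8 FPKM), Nkx2-2 (0.629 and 7.02 FPKM), Slit1, Ntn1 and Shh, with a median log2 ratio of 1.91. Notochord and floor plate share Shh, Foxa2, Slit1 and Ntn1, so these members cannot tell them apart. Spon1 and Nkx2-2 are not among these shared genes, and whether floor plate cells were present was not tested. Of 4 neural tube markers compared, 1 was higher, Nkx2-2, while Sox2 was at 10.5 and 14.5 FPKM and Pax6 was at 0 in both. The heart marker Nppa was at 0 and 8.60 FPKM, resting on 3.11 fragments, with Myl4 and Tnni1 at 0. Of 9 surface ectoderm markers, 6 were at 0 in each library and 0 of 2 compared were past 3-fold. The part of such cells in the higher genes was not tested.

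The E8.5 libraries, which had no part in choosing the genes, gave the contrast of trunk and caudal cells in another pair of libraries, with the difference in gate and somite range given above. Over the 9285 genes, 5.26% were 3-fold or more higher in trunk notochord at E8.5 and 6.25% lower. Of the 759 genes higher at E9.5, 169 (22.3%) were 3-fold higher at E8.5 and 52 (6.85%) 3-fold lower, and 464 (61.1%) lay above 0, with a median log2 ratio of 0.52. Of the 824 genes lower at E9.5, 187 (22.7%) were 3-fold lower at E8.5 and 52 (6.31%) 3-fold higher, and 520 (63.1%) lay below 0, with a median of -0.41. Among the 446 lower genes with 10 or more expected fragments, 111 (24.9%) were 3-fold lower and 9 (2.02%) 3-fold higher at E8.5. Among the 82 genes listed at 0 with 10 or more expected fragments, 37 (45.1%) were 3-fold lower at E8.5 and 3 were higher. Of the 15 largest higher genes, 9 were 3-fold higher at E8.5 as well and 0 were 3-fold lower, and of the 15 largest lower genes, 7 were 3-fold lower and 1, Rpl34-ps1, was higher.

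Lists differed in how far they held at both stages. The sheath matrix list had a median log2 ratio of 2.58 at both E8.5 and E9.5, with Col2a1 at 20.0 and 188 FPKM and Acan at 0.256 and 10.5 FPKM at E8.5. Caudal progenitor genes had a median of -2.47 at E8.5, where 24 of 25 lay below 0. Fgf feedback targets had -1.30 with 10 of 10 below 0, Notch genes -1.99 with 12 of 13 below 0, and Wnt targets -1.30 with 12 of 15 below 0. Retinoic acid genes turned, from -0.67 at E8.5 to 0.47 at E9.5. Hox groups 8 to 13 summed to 97.8 FPKM in NotoP and 6.50 FPKM in trunk notochord at E8.5. The difference between stages was not tested, since each rests on 1 library a group.

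**Figure D5:**
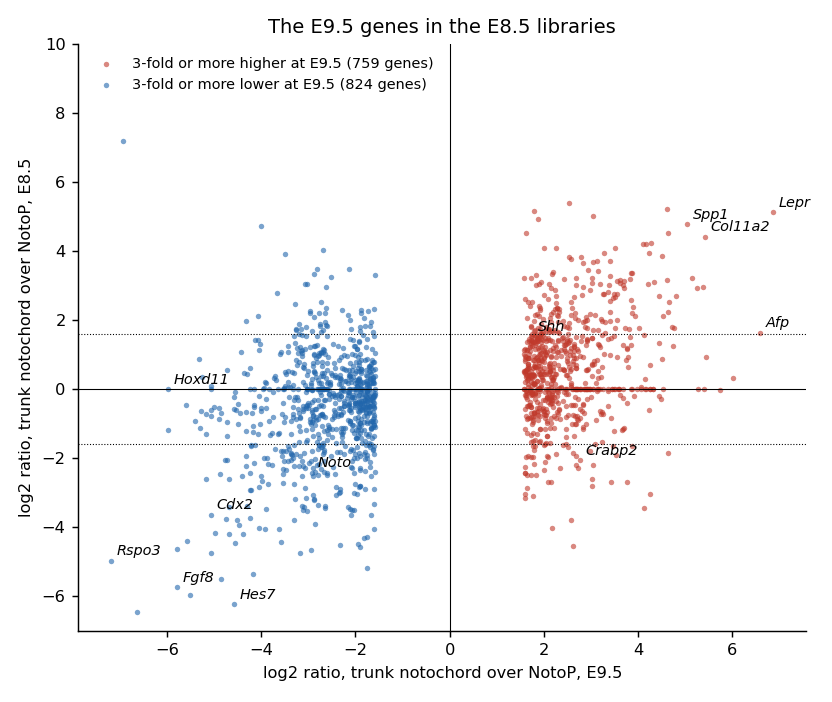
log2 ratio of (FPKM + 1), trunk notochord over NotoP, at E9.5 (horizontal) and E8.5 (vertical) for the 759 genes higher (red) and 824 lower (blue) at E9.5, with dotted lines at 3-fold at E8.5. Of these, 169 red points lie above the upper dotted line and 187 blue points below the lower; points on the horizontal line at 0 include genes at 0 in both E8.5 libraries.

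Most lower genes reached 5 FPKM in mesodermal progenitors at E9.5, and most higher genes did not. The share of lower genes that did still lay below that of all genes compared. Of all genes compared, 79.2% were at 5 FPKM or more in the MP library at E9.5. The share was 70.4% (580 genes) among the lower genes and 25.6% (194 genes) among the higher genes. The groups differ by construction, since a higher gene need not reach 5 FPKM in NotoP, which was cut from the same caudal tissue as MP. Among the higher genes, 111 (14.6%) were listed at 0 in MP, against 1.96% of all genes compared. Of the genes listed at 0 in trunk notochord with 10 or more expected fragments, 57 (69.5%) were at 5 FPKM or more in MP, against 87.7% of all genes at 5 FPKM or more in NotoP. Noto, which MP was sorted to lack (0 FPKM in MP), Mixl1 (4.00 FPKM), Epha2 (4.65 FPKM) and Abcb1b (3.47 FPKM) were among the lower genes that MP read at under 5 FPKM.

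Peaks of T and Foxa2 binding in NotoPdiff cultures were found near genes of both directions at shares near those of all genes. A T summit lay within 10 kb of a start site for 11.5% of the 9249 genes with an annotated start, for 11.5% of higher genes (87 of 754) and for 15% of lower genes (123 of 819). A Foxa2 summit lay there for 20.5% of all genes, 23.1% of higher genes (174) and 20.4% of lower genes (167). Either factor had a summit near 28.2% of all genes, 29.6% of higher and 30.4% of lower genes, and both factors near 3.8%, 5.04% and 5.01%. These peaks come from unsorted cultures enriched for progenitor-like cells, so binding in trunk notochord was not measured. By list, T summits lay near 13 of 25 caudal progenitor genes, 11 of 29 Hox genes and 1 of 13 sheath matrix genes. Hox genes lie close together in clusters, so a summit can be counted for several of them. The same weak T summit (-log10 q of 1.71) was counted for Hoxa3, Hoxa7 and Hoxa9. Foxa2 summits lay near 7 of 8 floor plate markers, 13 of 28 guidance genes and 2 of 13 sheath matrix genes.

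Among higher genes, a strong Foxa2 summit lay near Gas1, and its window is shown because Gas1 is a co-receptor of Shh. The summit lay 3783 bases past the start site (chr13:60173702-60173802, 12.6-fold enrichment), between genes in the annotation. Capitals mark TNTTTAC, the core of a forkhead site, read on either strand, and the sequence is the plus strand of mm10 from RefSeq's GRCm38.p6.
Gas1: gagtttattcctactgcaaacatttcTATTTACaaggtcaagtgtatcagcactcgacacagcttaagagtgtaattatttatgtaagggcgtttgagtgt
These letters stood in 21.1% of Foxa2 windows and in 6.68% of windows 10 kb away, and were chosen after the sequences were seen. Strong Foxa2 summits near Greb1, Fgf8 and Hapln3, genes lower in trunk notochord, lay in stretches rich in CA or TG repeats with neither set of letters. No other form of a forkhead or T-box site was searched, so these windows cannot be said to lack a site. The summit counted for Hapln3 lay at -5255 bases from its start site, in an intron of another gene, Mfge8.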

How the data were processed

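RNA was measured in pooled, sorted cells, with 1 library a group and no replicates. Per the labels and the study's methods, the authors trimmed the reads, aligned them to mm10 with TopHat2 2.1.1 and Bowtie 1.2.2, removed PCR duplicates by molecular identifier, and deposited FPKM from Cufflinks 2.2.1. The gene table held no counts, so depth was inferred from whole steps in FPKM times transcript length (RefSeq GRCm38.p6). The peak lists each came from 1 ChIP library of unsorted NotoPdiff cultures, aligned with Bowtie 1.3.1 and called with MACS3 3.0.0b1 by the authors. They held a deposited fold enrichment, which is a ratio to local background, and a deposited −log10 q value for each peak.

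Ratios were taken on the log2(FPKM + 1) scale among genes at 5 FPKM or more in either library, and genes at 3-fold or more were described. Intervals were 95% exact binomial intervals on implied fragments. Peaks were assigned within 10 kb of any annotated start. The genes and lists were chosen with earlier results of these data known. Named genes were the sorting genes, the 15 coding genes with the largest log2 ratio in each direction, the 10 and 5 coding genes with the highest level among those listed at 0 in trunk notochord and NotoP, and list and Hox members past 3-fold with up to 4 others a list in list order. Small RNA genes (6 higher, 14 lower) were counted and not named. The steps were tested on simulated data. Every value column of the gene table matched a sample, and the culture columns entered no comparison. The work used samtools 1.23.1 and Python 3.11.15 with scipy 1.17.1, pandas 2.3.3, numpy 2.4.6 and matplotlib 3.10.9. Some items that the naming rule selects are not reported here.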

Additional observations from a re-analysis of the deposited data

Results flagged for a closer look

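A pair of named genes lay past 3-fold in opposite directions at E9.5 and E8.5. Rpl34-ps1 carries the name of a ribosomal protein pseudogene but is annotated as protein coding. It was at 122 FPKM in NotoP and listed at 0 in trunk notochord at E9.5. At E8.5, however, it had a log2 ratio of (FPKM + 1) of 7.19 in favour of trunk notochord. It is nearly identical to Rpl34, and the sum of both was 155 FPKM in trunk notochord and 428 FPKM in NotoP at E9.5 and 333 and 457 FPKM at E8.5, so the assignment of reads between the copies is uncertain. Nuak2, a kinase gene and a Yap target, was at 5.18 FPKM in NotoP and listed at 0 in trunk notochord at E9.5, with 6.77 fragments expected, and had a log2 ratio of 2.96 at E8.5. The difference between stages was not tested for either gene, since each stage had 1 library a group.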

How the results depend on the processing

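The counts, in the order higher, lower, listed at 0 in trunk notochord and listed at 0 in NotoP, were 759, 824, 306 and 106. A pseudocount of 5 gave 262 higher and 300 lower. A minimum of 1 FPKM gave 1239 lower, 1145 listed at 0 in trunk notochord and 493 in NotoP, and no minimum gave 1239, 2209 and 632. A minimum of 10 FPKM gave 517, 123 and 50, and one of 20 FPKM gave 251 higher, 272 lower, 44 and 15. A limit of 2-fold gave 1446 higher and 1564 lower, and 5-fold gave 347 and 458. With genes above 0 in both libraries, 518 were lower, and no count of genes at 0 could be had. Against the mean NotoP level of both stages, 64 genes were listed at 0 in NotoP, and with both groups averaged over stages the counts were 456, 397, 92 and 57. Reading levels under 0.5 FPKM as 0 gave 173 in NotoP. In alternatives chosen after seeing the data, 10 or more fragments left 446 lower, 82 and 48, and an interval that left out equal levels kept 203 genes at 0 in trunk notochord. Of 472 genes with a summit of either factor within 10 kb, 5 kb gave 310 and 50 kb gave 1143. The changes in counts follow from the limits themselves. Other scalings put the share of higher genes among those past 3-fold at 43.2% to 53.8%, against 47.9%. Of the list medians under alternatives, 26 shifted by 0.25 or more on the log2 scale and 184 did not, all 26 under another pseudocount and none with a change of sign. With pseudocounts of 0.1 to 5, the caudal median ran from -5.54 to -1.88, the sheath median from 3.67 to 1.23, the gut marker median from 4.37 to 1.24 and the neural crest median from 4.66 to 1.63. Of the values of named genes, 75 shifted by as much and left their counting interval (71 with a pseudocount of 5, 4 with 0.5) and 993 did not. Leaving out a replicate was not possible with 1 library a group. No paired analysis was possible because the labels give no replicate numbers and each group had 1 library. A trunk library of about 421000 fragments limits the reading of short or weakly expressed genes, and a 0 there is not absence.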

Other observations

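Genes known to be imprinted, expressed from the copy of 1 parent, were looked at after Zim1 had appeared among the largest ratios, so these genes were named after their values were seen. Peg3, a zinc finger gene beside Zim1, was at 32.6 FPKM in NotoP and 180 FPKM in trunk notochord at E9.5, and at 21.9 and 211 FPKM at E8.5. Mest was at 18.6 and 221 FPKM at E9.5 and at 29.6 and 88.0 FPKM at E8.5. Dlk1, Meg3 and Rian, of a shared imprinted region, were at 9.77 and 29.6 FPKM, at 44.8 and 110 FPKM, and at 129 and 264 FPKM, each under 3-fold on the (FPKM + 1) scale. Igf2 (345 and 315 FPKM), Grb10 (495 and 592 FPKM), Gnas (608 and 529 FPKM) and Igf2r (59.4 and 70.8 FPKM) were nearly level. Phlda2 was at 6.99 FPKM in NotoP and listed at 0 in trunk notochord.

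Among further transcription factors and membrane proteins, named after their values were seen, Mycn was at 64.3 FPKM in NotoP and 8.24 FPKM in trunk notochord at E9.5, and at 34.9 and 6.78 FPKM at E8.5. Ptk7, a receptor of the planar polarity pathway, was at 199 and 48.0 FPKM. Nr2f2, a nuclear receptor, was at 0.764 and 29.9 FPKM. Col6a3, a collagen VI chain, and L1cam, an adhesion protein of neurons, were listed at 0 in NotoP and stood at 17.5 and 13.9 FPKM in trunk notochord.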
